A study of Homo sapiens with 12 samples.

Results

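Combined knockdown of SFSWAP and UPF1 was compared with control siRNA in 293A-TOA cells, a line derived from the human embryonic kidney line HEK293A. The control group was siNT and the double knockdown group was siSFSWAP/siUPF1, each with 3 biological replicates, so 6 of the 12 polyA RNA-seq libraries of the series entered the comparison. The members were chosen by group label alone, with no measured value. siSFSWAP cells received 40 nM of a mixture of SFSWAP siRNAs, siNT/siUPF1 cells 30 nM of UPF1 siRNA, and siSFSWAP/siUPF1 cells both, for 5 days. All 4 groups, the controls included, were then held for 6 hr in 1 μM TG (Thiamet-G), an inhibitor of the O-GlcNAcase OGA, so no untreated cells were compared. siRNA leaves part of the target transcript in place, and the cells are 1 transformed line. The single knockdowns were used to set the change in the double knockdown against the sum of the changes in siSFSWAP and in siNT/siUPF1. The study describes the RNA-seq with UPF1 siRNA after that without it, and no batch is given. A difference between these sets of libraries cannot be told apart from the effect of UPF1 siRNA.

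SFSWAP is an SR-related splicing factor with SURP domains. Its second SURP domain is known to bind the branchpoint-binding protein SF1 in vitro, and the study reports co-immunoprecipitation of SFSWAP with SF1. UPF1 is the RNA helicase at the centre of nonsense-mediated decay (NMD), the pathway that degrades transcripts whose stop codon lies too far upstream of an exon junction. Many splicing factor genes carry "poison" exons whose inclusion makes the transcript a target of NMD, so lowering UPF1 can bring unproductive splice forms into view that are otherwise degraded. Introns that stay in polyadenylated RNA can be held in the nucleus, out of reach of NMD, as is known for the intron of OGT, the O-GlcNAc transferase, around its decoy exon.

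Each event was measured as an inclusion level from 0 to 1, after reads of its 2 forms were divided by their effective lengths. The level is the share of these forms that held the intron (retained introns, RI) or the exon (skipped exons, SE). An exon event is set by the exon and its flanks. Its level need not be the share of all transcripts of the gene with that exon. Of the events listed in both tables that hold these groups, 2990 retained introns of 1883 genes and 25995 skipped exon events of 6990 genes, covering 23645 distinct exons, passed the filter on reads. Exons were counted as distinct when either end differed. Differences are given as siSFSWAP/siUPF1 minus siNT, either in inclusion level or in log2 odds, the log2 of the ratio of included to excluded reads. An event was called when its adjusted p in the moderated quasi-binomial test was at most 0.05 and the inclusion levels of the 3 and 3 libraries did not overlap. "Higher" and "lower" below mean called in that direction.

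The sequences of 5 introns and 3 exons on which the results turn are shown first, from GRCh38 and read 5′ to 3′ on the transcribed strand. They show the contrast of GC-rich and AT-rich introns, an exon that was included more, a microexon that was skipped more, and the OGT decoy exon. In the introns, capitals mark the first and last dinucleotides; in the exons, capitals mark the exon and small letters 30 bases of intron on each side. The introns are PIEZO1 intron 41 (chr16:88720284-88720384, minus strand), IFRD2 intron 2 (chr3:50290473-50290559, minus strand), NAPA intron 6 (chr19:47493046-47493118, minus strand), intron 1 of PAXX, listed as C9orf142 (chr9:136992563-136992639, plus strand), and MITD1 intron 6 (chr2:99169471-99169549, minus strand), all between coding exons. The exons are COASY exon 4 (chr17:42564709-42564898, plus strand) and MON2 exon 28 (chr12:62566014-62566031, plus strand), both coding, and the OGT decoy exon in its longer form (chrX:71546344-71546496, plus strand) inside intron 4. The printed stretches are, in this order:
PIEZO1 intron 41: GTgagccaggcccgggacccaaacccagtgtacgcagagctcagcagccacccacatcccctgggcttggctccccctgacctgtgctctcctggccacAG
IFRD2 intron 2: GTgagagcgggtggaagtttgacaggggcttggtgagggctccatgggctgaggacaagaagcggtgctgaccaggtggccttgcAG
NAPA intron 6: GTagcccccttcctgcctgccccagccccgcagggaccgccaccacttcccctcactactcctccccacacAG
PAXX intron 1: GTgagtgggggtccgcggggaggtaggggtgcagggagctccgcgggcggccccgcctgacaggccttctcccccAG
MITD1 intron 6: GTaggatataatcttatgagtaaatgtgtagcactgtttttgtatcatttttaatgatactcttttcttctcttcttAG
COASY exon 4: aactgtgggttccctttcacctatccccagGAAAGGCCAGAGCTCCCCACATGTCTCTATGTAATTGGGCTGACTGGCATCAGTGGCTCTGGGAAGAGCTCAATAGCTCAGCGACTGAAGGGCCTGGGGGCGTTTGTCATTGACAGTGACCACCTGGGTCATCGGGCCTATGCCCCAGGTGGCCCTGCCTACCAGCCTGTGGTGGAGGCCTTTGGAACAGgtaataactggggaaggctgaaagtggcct
MON2 exon 28: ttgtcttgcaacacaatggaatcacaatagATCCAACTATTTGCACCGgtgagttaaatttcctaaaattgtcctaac
OGT decoy exon: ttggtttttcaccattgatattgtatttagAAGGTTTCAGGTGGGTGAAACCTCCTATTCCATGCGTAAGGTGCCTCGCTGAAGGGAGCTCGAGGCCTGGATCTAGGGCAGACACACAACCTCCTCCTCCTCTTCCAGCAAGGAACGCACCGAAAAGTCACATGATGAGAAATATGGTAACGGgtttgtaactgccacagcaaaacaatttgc

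Both targeted transcripts were lower in the double knockdown. Scaled to 1000000 reads counted at skipped exon events, SFSWAP had 52.7, 54.6 and 55.8 reads in siNT and 15.1, 21.1 and 31.0 in siSFSWAP/siUPF1, or 41.3% of the control mean. The single knockdown libraries had 18.3, 26.8 and 20.4. UPF1 had 283, 354 and 249 in siNT and 86.5, 116 and 155 in siSFSWAP/siUPF1, or 40.4% of the control mean, beside 63.4, 86.8 and 112 in siNT/siUPF1. For both genes the double knockdown and control libraries did not overlap (exact permutation test, p = 0.1, the smallest that 3 against 3 allows). UPF1 was 1.36-fold as high in the double as in the UPF1 knockdown, with overlapping libraries (exact permutation test, p = 0.3).

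Read counts were summed over events, and a read was counted at every event that it supports. These sums were 16909377 to 23979059 a library at the matched skipped exon events and 1068504 to 1574120 at the matched retained introns. A double knockdown library had the lowest sum on both. Median inclusion levels differed between control and double knockdown libraries for both kinds of event. Over all tested introns it was 0.0926, 0.0765 and 0.0974 in siNT and 0.0600, 0.0695 and 0.0646 in siSFSWAP/siUPF1, with 0.0683, 0.0787 and 0.0669 in siNT/siUPF1, which overlapped siNT. Over all tested exons it was 0.736, 0.767 and 0.744 in siNT and 0.796, 0.782 and 0.809 in siSFSWAP/siUPF1. In log2 odds the median intron lay at -0.23 in the double knockdown, -0.21 in siSFSWAP and -0.18 in siNT/siUPF1, and the median exon at 0.30, 0.29 and 0.27, all against the same siNT libraries. One siNT/siUPF1 library, listed in place 3, stood apart from the others of its group with a median exon level of 0.804 beside 0.755 and 0.750, which bears on the sum of the single changes.

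The double knockdown lowered the retention of many more introns than it raised. Of 2990 introns, 244 were called (8.16%), 198 of them lower (6.62%) and 46 higher (1.54%), in 212 genes. For comparison, 24.0% of all introns had libraries that did not overlap. The lower introns fell from a median level of 0.267 to 0.0746 and the higher ones went from 0.190 to 0.392. A difference of at least 0.2 was reached by 86 called introns (2.88% of all), 71 lower (2.37%) and 15 higher (0.502%). In 12 introns every control library lay above 0.5 and every double knockdown library below it, and 4 introns crossed in the other direction. When the changes were centred on the median shift of all introns, with a Wald test on the same spread, 76 introns were lower and 51 higher (40.2% higher). The same Wald test without centring gave 151 lower and 30 higher (16.6% higher), beside 18.9% higher in the test used for calling. The count also rests on sharing the spread across introns: limma on log2 odds called 104 introns, and each intron's own dispersion 5.

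Of the 8 lower introns with the largest differences, all were short, from 73 to 186 nt, had a GC content of 62.07% to 76.62% and lay between coding exons. The 101 nt intron 41 of PIEZO1, a mechanically gated cation channel, had inclusion levels of 0.79, 0.442 and 0.727 in siNT and 0.257, 0.279 and 0.217 in siSFSWAP/siUPF1. The event had 17 to 115 reads a library and a change of -2.57 ± 0.58 log2 odds (SE, adjusted p = 0.0030). The siSFSWAP libraries (0.28, 0.213 and 0.266) lay with the double knockdown and the siNT/siUPF1 libraries (0.838, 0.745 and 0.55) with the control.

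The 87 nt intron 2 of IFRD2 was retained at 0.437, 0.347 and 0.62 in siNT and at 0.0643, 0.14 and 0.106 in the double knockdown (change of -2.80 ± 0.49 log2 odds, SE, adjusted p = 0.00055). The 73 nt intron 6 of NAPA, which encodes the SNARE-disassembly adaptor alpha-SNAP, went from 0.443, 0.336 and 0.61 to 0.0974, 0.171 and 0.141. In both introns the control libraries varied more among themselves than the double knockdown libraries did. The 186 nt intron 13 of MCAM, a cell adhesion molecule, went from 0.555, 0.49 and 0.693 to 0.148, 0.177 and 0.172, the largest difference in the set at -0.414. The 77 nt intron 1 of PAXX, a factor of DNA end joining, went from 0.683, 0.303 and 0.659 to 0.237, 0.165 and 0.109. The control library listed second lay between the others and the double knockdown in PIEZO1, IFRD2, NAPA and PAXX. The remaining lower introns were in ACADVL, the very long chain acyl-CoA dehydrogenase (-2.35 ± 0.55 log2 odds, SE), the kinase gene ULK3 (-2.40 ± 0.49) and SGSM3 (-2.23 ± 0.58).

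The higher introns were longer and poorer in GC. A 4965 nt stretch inside the last exon of DCAF7, counted as an intron of its untranslated region, had the most reads of the named introns, 4475 to 6658 a library. It went from 0.494, 0.562 and 0.568 to 0.799, 0.737 and 0.787 (1.51 ± 0.28 log2 odds, SE, adjusted p = 0.00036). A 2047 nt intron at VAMP1, a synaptic vesicle SNARE, went from 0.456, 0.497 and 0.399 to 0.911, 0.747 and 0.638. In both genes the groups did not overlap, as the rule for a call requires.

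In RSRP1, which encodes a small arginine- and serine-rich protein, the 651 nt event changed by 1.78 ± 0.57 log2 odds (SE), and in HMGN3, a nucleosome-binding protein, the 329 nt event changed by 2.77 ± 0.82. NSMF had the largest difference (0.516), from 0.498, 0.521 and 0.37 to 1, 1 and 0.936, with as few as 9 reads in a library. NSMF was also the exception to the low GC content, at 68.67%. ZDHHC6, a palmitoyltransferase gene, changed by 2.91 ± 1.00. A short intron could also be higher: MITD1 intron 6, chosen after its values were seen because it has 79 nt and a GC content of 27.8%, went from 0.155, 0.267 and 0.283 to 0.455, 0.406 and 0.5 (adjusted p = 0.0028). MITD1 encodes a protein of the last step of cell division.

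**Figure D1:**
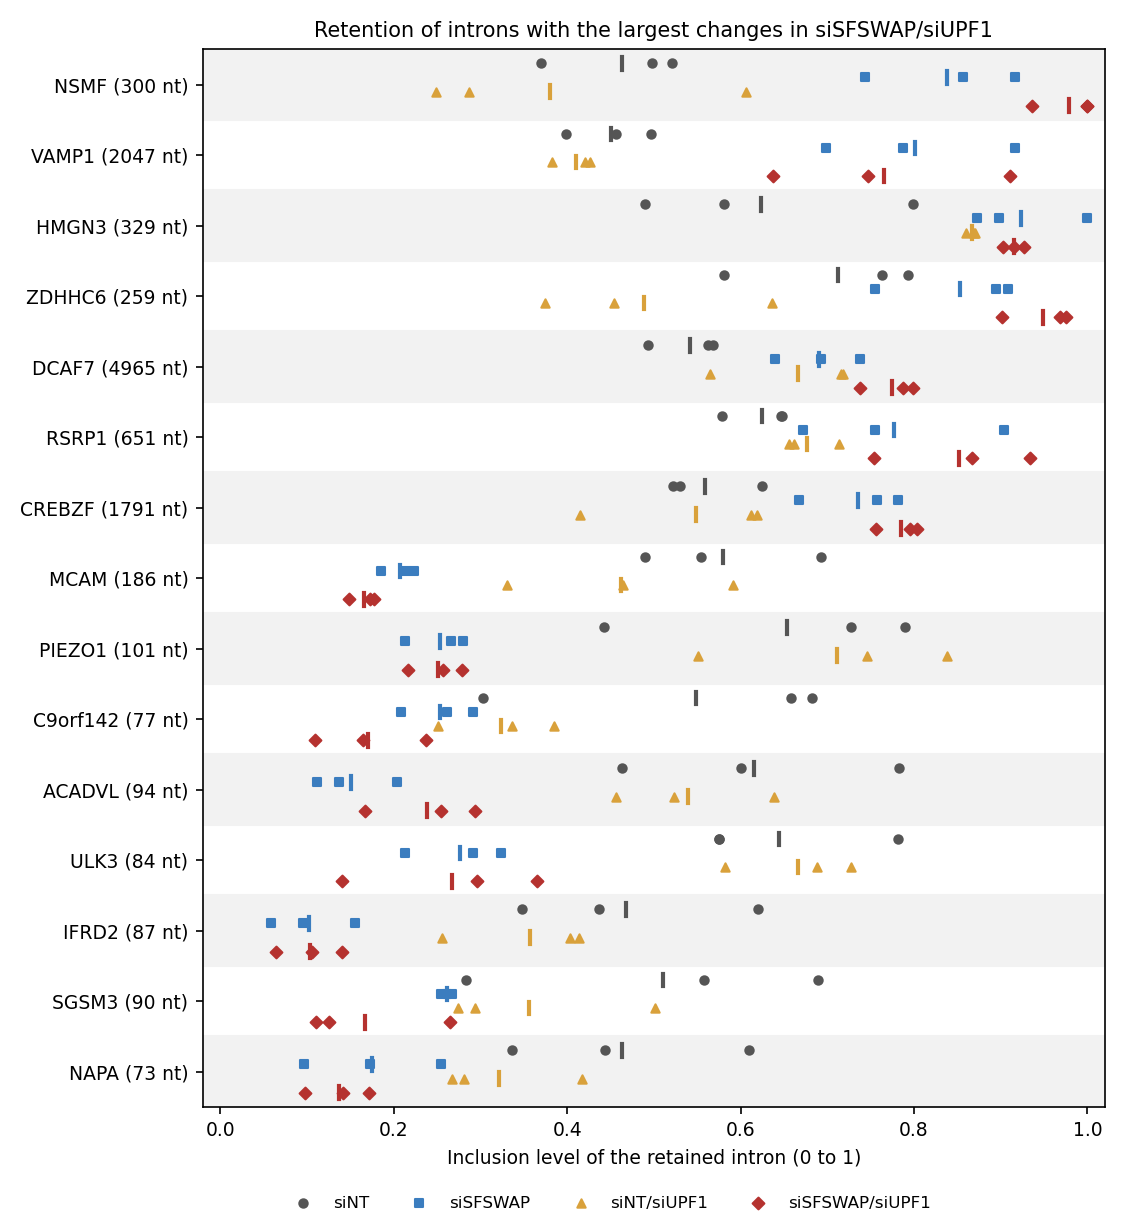
Inclusion level (0 to 1, horizontal axis) of 7 higher and 8 lower named introns in each of the 12 libraries; points are libraries, short bars group means, and colours the 4 groups. For MCAM the double knockdown libraries sit between 0.148 and 0.177 and the controls between 0.49 and 0.693, with the siSFSWAP libraries at 0.185 to 0.223.

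More exons were called towards inclusion than towards skipping. Of 25995 skipped exon events, 2062 were called (7.93%), 1322 higher (5.09%) and 740 lower (2.85%), which makes 2005 distinct exons in 1157 genes. Forms of an exon that share an end count separately in that number and can share reads. In 24.7% of all exon events the libraries did not overlap. A difference of at least 0.2 was reached by 753 called events (2.90% of all), 544 higher (2.09%) and 209 lower (0.804%). The higher exons went from a median level of 0.654 to 0.943 and the lower ones from 0.973 to 0.802. In 77 events all libraries crossed 0.5 upwards and in 43 downwards. Centring on the median shift turned the split: 231 events were then higher and 459 lower, so the share called higher went from 64.1% to 33.5%, while the same Wald test without centring gave 454 higher and 301 lower (60.1% higher). The direction of the majority of exons therefore held only without centring. Without the double knockdown library in place 3 the split was 814 higher and 751 lower (52.0% higher). limma on log2 odds called 987 events, and each event's own dispersion 4.

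Among exons that were included more, COASY exon 4 had levels of 0.0738, 0.231 and 0.0637 in siNT and 0.902, 0.751 and 0.808 in siSFSWAP/siUPF1. COASY encodes the enzyme of the final steps of coenzyme A synthesis. The change was 5.08 ± 0.97 log2 odds (SE, adjusted p = 0.0038), and siSFSWAP alone gave 0.693, 0.771 and 0.63. A 91 nt event at exon 5 of BECN1, the autophagy protein Beclin, went from 0.0993, 0.35 and 0.227 to 0.943, 0.915 and 0.922. Its siNT/siUPF1 libraries lay at 0.256, 0.322 and 0.769. Neither the COASY nor the BECN1 event was placed, with its flanks, on the transcript used to number the exons. The levels therefore do not show that most COASY or BECN1 transcripts of control cells skip the exon. In both genes the double knockdown lay far above every control, and for BECN1 the UPF1 knockdown library in place 3 lay near it. An 81 nt event at exon 7 of NDUFV1, a subunit of respiratory complex I, went from 0.0868, 0.146 and 0.0883 to 0.775, 0.722 and 0.623 (4.52 ± 0.72 log2 odds, adjusted p = 9.5e-08). There too the third siNT/siUPF1 library (0.639) stood above the others of its group (0.121 and 0.351).

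Similar changes were measured in STUB1, a ubiquitin ligase (difference of 0.624), and REEP4, a protein of the endoplasmic reticulum (0.562). The differences in ACAA1, the peroxisomal thiolase, and in an event at leader exon 2 of EIF4G1, the scaffold of cap-dependent translation, were 0.536 and 0.514. The 2961 nt exon 7 of VCAN, the proteoglycan versican, was included at 0.157, 0.31 and 0.174 in siNT and at 0.863, 0.679 and 0.642 in siSFSWAP/siUPF1. This was the longest of the named exons and the one among the 8 whose flanking introns were poor in GC (34.55%). The STUB1 event rested on as few as 11 reads in a library, and its double knockdown libraries (0.825, 0.485 and 1) varied widely.

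Exons that were skipped more included short ones. The 18 nt exon 28 of MON2, a regulator of Golgi trafficking, was included at 0.944, 0.912 and 0.866 in siNT and at 0.324, 0.371 and 0.425 in siSFSWAP/siUPF1 (-3.83 ± 0.68 log2 odds, SE, adjusted p = 1.9e-07). siNT/siUPF1 stayed at 0.869, 0.905 and 0.831. A 21 nt exon of DIAPH2, a formin, went from 0.852, 0.701 and 0.843 to 0.41, 0.31 and 0.452. Both microexons thus went from the major to the minor form.

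At UCHL1, a ubiquitin hydrolase gene, a 39 nt event at exon 6 with 722 to 1076 reads a library went from 0.941, 0.956 and 0.924 to 0.414, 0.45 and 0.607 (adjusted p = 0.00014). Its siNT/siUPF1 libraries lay at 0.983, 0.981 and 0.981, above the controls. A 94 nt event of the RPL17-C18orf32 readthrough gene, which shares its end with exon 3 of RPL17, went from 0.976, 0.976 and 0.992 to 0.496, 0.433 and 0.527. Reads of the readthrough gene and of RPL17 cannot be separated there. STAU1 encodes a double-stranded RNA-binding protein that works with UPF1 in another decay pathway. An event at STAU1 exon 3 went from 0.95, 0.875 and 0.807 to 0.568, 0.295 and 0.513 (-3.01 ± 0.89 log2 odds, SE). Its siNT/siUPF1 libraries, at 0.718, 0.361 and 0.242, overlapped the double knockdown and not the control. The others were in UBA1, the ubiquitin-activating enzyme (-0.502 in inclusion level), SNAPC4, a subunit of the snRNA-activating complex (-0.496), and the non-coding SNHG1 (-0.454).

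**Figure D2:**
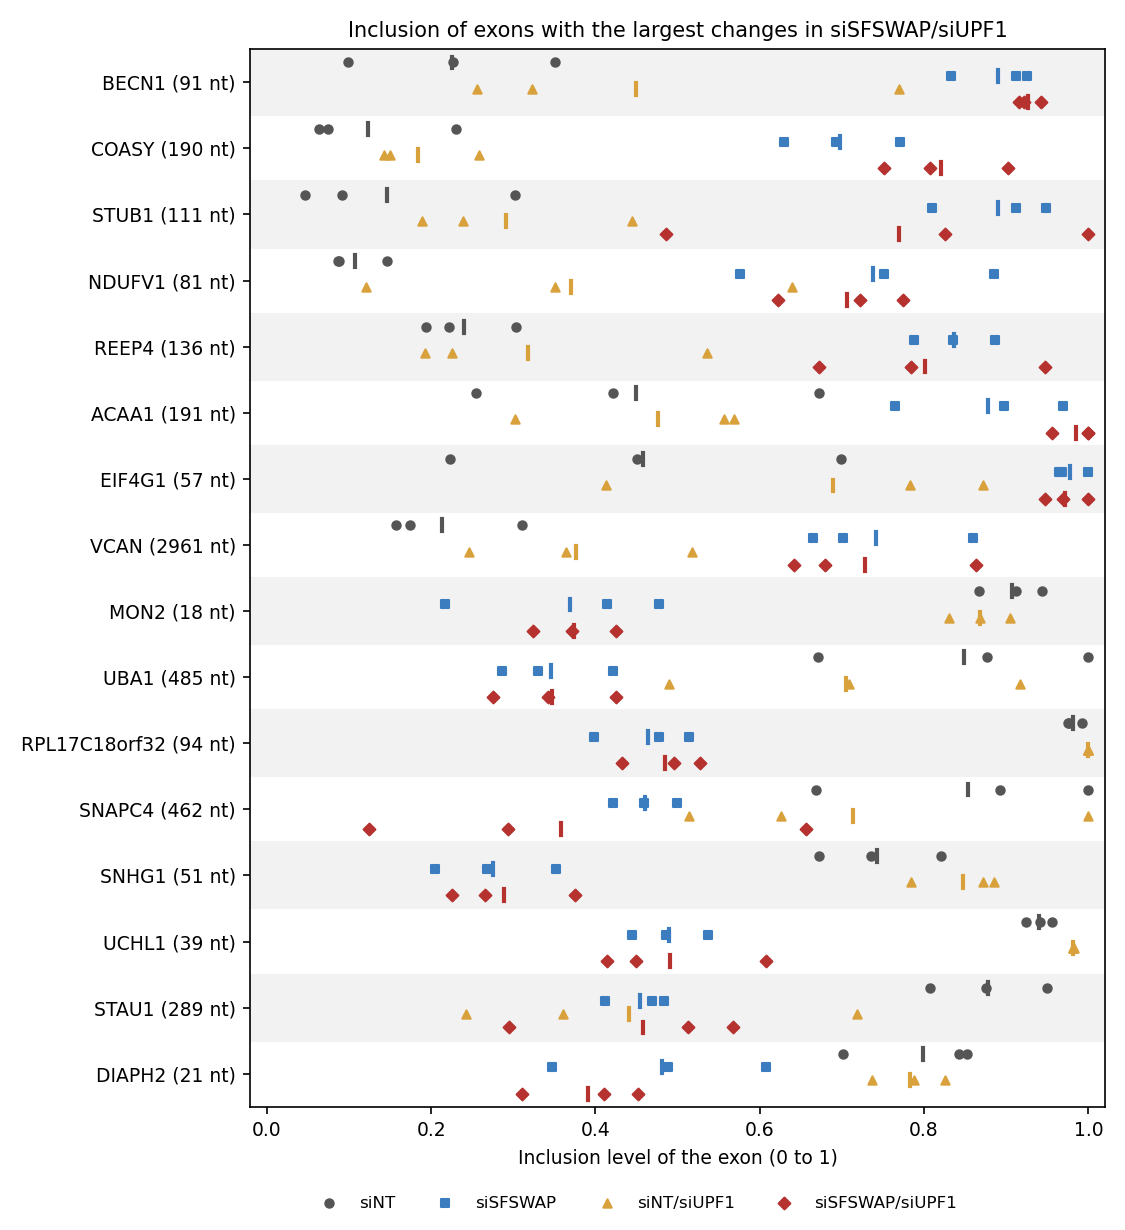
Inclusion level (0 to 1, horizontal axis) of the 8 higher and 8 lower named exons in each of the 12 libraries; points are libraries, short bars group means, and colours the 4 groups. MON2 falls from 0.866 to 0.944 in siNT to 0.324 to 0.425 in siSFSWAP/siUPF1, and COASY rises from at most 0.231 to at least 0.751.

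The GC content of the introns, which the choice of libraries did not use, separated the directions. Introns that were lower had a median GC content of 61.9% and a median length of 121 nt, higher introns 40.7% and 280 nt, and all tested introns 55.2% and 136 nt. Of introns under 40% GC, 2.95% were higher and 1.69% lower. Of introns of 60% GC or more, 0.282% were higher and 11.1% lower. Of the 206 introns of at least 500 nt, 7.77% were higher and 3.88% lower. These shares are descriptions of all tested introns and were not tested against each other.

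For exons the GC content of the 2 flanking introns went with the direction. It had a median of 54.5% for higher exons, 39.3% for lower exons and 43.0% for all. The share called higher went from 1.56% under 40% GC to 19.7% at 60% or more, and the share called lower from 4.60% to 0.945%. The median exon in the GC-richest introns changed by 1.60 log2 odds in the double knockdown, 1.70 in siSFSWAP and 0.44 in siNT/siUPF1, and in the GC-poorest by -0.03, -0.06 and 0.27, against the same controls. In the GC-richest class the median level was 0.781, 0.867 and 0.746 in siNT and 0.961, 0.930 and 0.958 in siSFSWAP/siUPF1. The third siNT/siUPF1 library had 0.923 there, beside 0.835 and 0.789 in its group.

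Lower exons were also short. Their median length was 78 nt against 117 nt for all, and of the 529 events of up to 30 nt, 11.3% were lower and 3.78% higher. Among lower exons 50.3% had a length divisible by 3, among higher exons 42.9% and among all 40.9%.

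**Figure D3:**
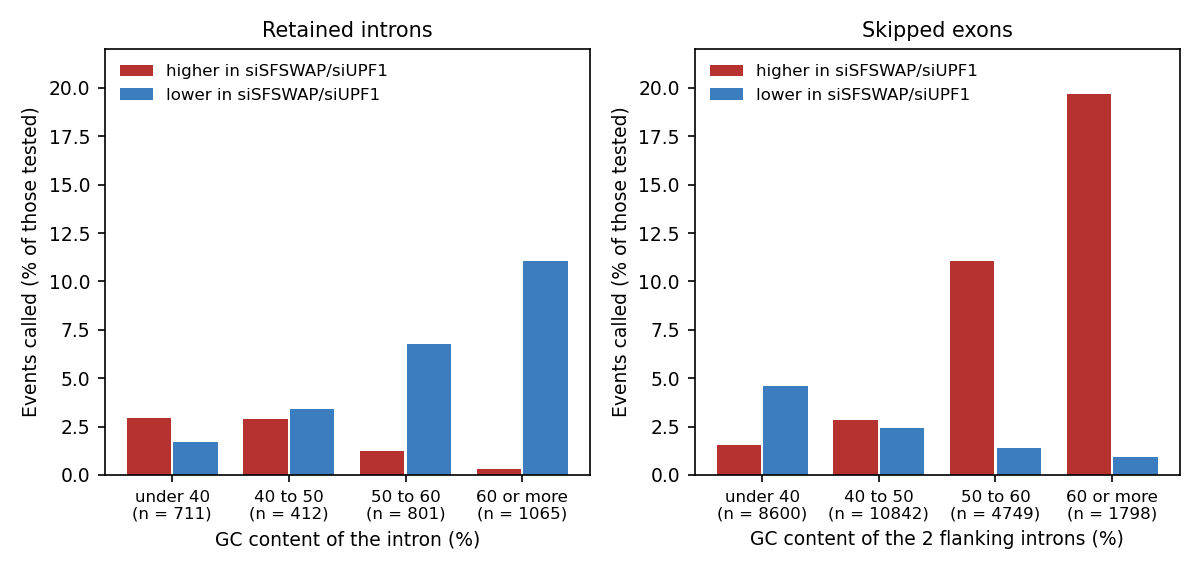
Share of tested events called higher or lower in siSFSWAP/siUPF1 (percent, vertical axis) by GC content, for retained introns by their own GC content (left) and skipped exons by that of the flanking introns (right); bars are shares of all tested events in a class. At 60% GC or more, 11.1% of introns were lower and 19.7% of exons higher, and under 40% GC 1.69% and 1.56%.

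The called events were also compared between the single knockdowns, siSFSWAP against siNT/siUPF1, which share no library with siNT or siSFSWAP/siUPF1. This comparison was added after the data were seen. Its test used the same moderated spread over all 12 libraries as the call, so the tests are not independent. Of the 198 lower introns, 59 (29.8%) were lower in siSFSWAP than in siNT/siUPF1 and 0 were higher by the same test with no condition on overlap. Over all introns 4.15% were lower and 1.47% higher. The 59 introns made 47.6% of all introns lower in siSFSWAP. Of the 46 higher introns, 8 (17.4%) were higher in siSFSWAP and 0 lower. Of the 1322 higher exon events, 478 (36.2%) were higher in siSFSWAP and 11 lower, and of the 740 lower events, 442 (59.7%) were lower and 4 higher. Over all exons the shares were 5.42% higher and 5.40% lower. The 478 events made 33.9% of all exon events higher in siSFSWAP, and the 442 events 31.5% of all those lower in siSFSWAP.

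Genes of the splicing machinery were described by lists. Of 108 exon events in genes of branchpoint and U2 snRNP factors, 7 were higher and 11 lower (16.7% called, against 7.93% of all), and of 25 introns 4 were lower. The higher exon events came from 4 genes and the lower from 4, and several share an exon. SF1, the branchpoint-binding protein, had a 205 nt event at exon 13 that went from 0.42, 0.451 and 0.42 in siNT to 0.683, 0.645 and 0.606 (1.21 ± 0.20 log2 odds, SE, adjusted p = 2.0e-06). In siSFSWAP this event lay at 0.704, 0.649 and 0.695. Another event of the same 205 nt exon, with other flanks, was called lower. Its mean level went from 0.958 in siNT to 0.733 in siSFSWAP/siUPF1 (adjusted p = 0.0019 in the same test). The direction for this exon thus depended on the event. Exon 6 of RBM5, an RNA-binding regulator of alternative splicing whose skipped form is annotated as an NMD target, went from 0.854, 0.948 and 0.826 to 0.512, 0.289 and 0.702. Intron 3 of U2AF1L4, a relative of the small U2AF subunit, went from 0.333, 0.423 and 0.629 to 0.139, 0.215 and 0.131, and intron 14 of CHERP, a U2-associated SR-related protein, from 0.183, 0.116 and 0.249 to 0.0433, 0.0738 and 0.0569.

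Of the exon events in 22 hnRNP genes, 6 were higher and 9 lower, a share of 9.80% near the 7.93% of all, and of 25 introns 1 was higher and 2 lower. The 23 nt event at exon 12 of PCBP2, a poly(C)-binding protein, went from 0.309, 0.309 and 0.288 to 0.121, 0.129 and 0.143 (-1.52 ± 0.19 log2 odds, SE, adjusted p = 6.7e-11). Exon 13 of HNRNPM went from 0.809, 0.819 and 0.831 to 0.694, 0.709 and 0.742. Exon 7 of HNRNPAB went from 0.483, 0.531 and 0.568 to 0.686, 0.715 and 0.682, and a 169 nt event at exon 7 of HNRNPD from 0.116, 0.114 and 0.121 to 0.16, 0.194 and 0.154. The rule for a call already requires groups that do not overlap. Within groups, the HNRNPAB controls ran from 0.483 to 0.568 and the HNRNPD double knockdown libraries from 0.154 to 0.194.

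Of 68 exon events in SR protein genes, 3 were higher and 5 lower (11.8% called, against 7.93% of all), the latter all in SRSF10. The higher events came from 2 genes, SRSF4 and SRSF10, and most called events share an exon end with another. A 102 nt exon of SRSF10 was called higher in an event and lower in another with other flanks. The direction for this exon of SRSF10 thus depended on the event. Its 62 nt event at exon 5 went from 0.881, 0.798 and 0.849 to 0.653, 0.669 and 0.673. The 195 nt poison exon in intron 2 of SRSF4 went from 0, 0.00273 and 0.00208 to 0.0278, 0.0191 and 0.0228, still a minor form. Of 11 introns in these genes 1 was higher, a 3614 nt intron of SRSF10 with a mean level of 0.841 in siNT and 0.954 in siSFSWAP/siUPF1 (adjusted p = 0.022). Retention of a 131 nt intron of SRSF1 (adjusted p = 0.070) and inclusion of a 21 nt exon of SRSF5 (adjusted p = 0.12) were not called. Of 25 exon events and 3 introns in genes of splicing kinases none was called, and the kinase events with the lowest adjusted p were in PRPF4B (0.11), CLK1 (0.16), CLK4 (0.22) and DYRK1A (0.48).

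Among 311 exon events of other splicing regulators, 15 were higher and 14 lower, a share of 9.32% near the 7.93% of all, and of 45 introns 1 was higher and 4 lower. SRRM2, a large SR-related protein of nuclear speckles, included its exon 2 at 0.592, 0.645 and 0.616 in siNT and at 0.847, 0.804 and 0.801 in siSFSWAP/siUPF1 (1.41 ± 0.21 log2 odds, SE). Exon 10 of PNISR, an SR-related protein, went from 0.829, 0.819 and 0.826 to 0.478, 0.612 and 0.656, while siNT/siUPF1 lay at 0.923, 0.904 and 0.878. A 150 nt event at exon 3 of TIAL1, an RNA-binding protein of the TIA family, went from 0.994, 0.985 and 0.965 to 0.779, 0.838 and 0.794. Exon 3 of KHDRBS1, the RNA-binding protein Sam68, changed by -2.04 ± 0.44 log2 odds.

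**Figure D4:**
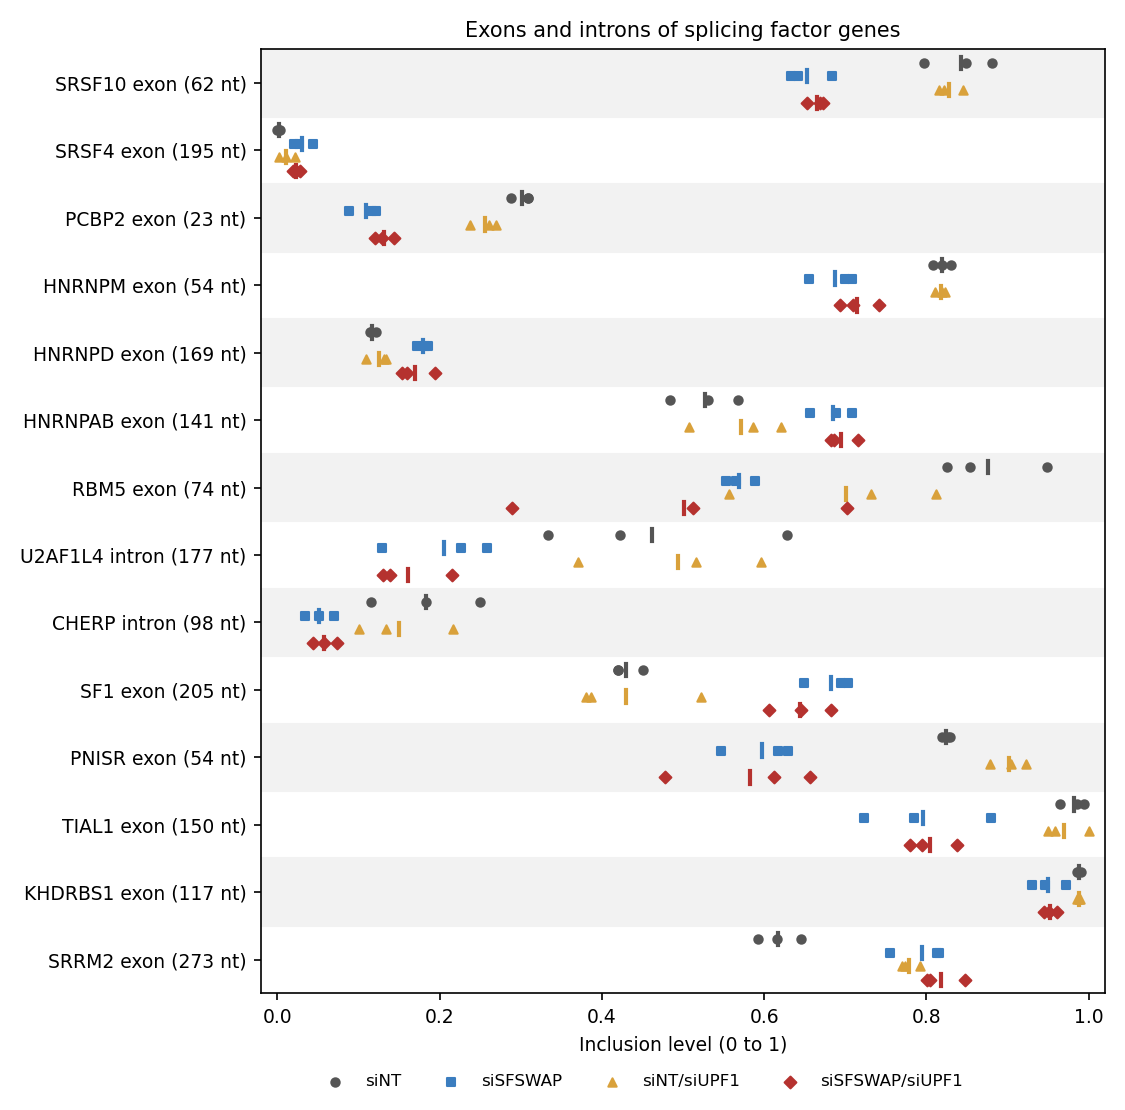
Inclusion level (0 to 1, horizontal axis) of the called named exons and introns of SR protein, hnRNP, branchpoint and U2 factor and other splicing regulator genes in each of the 12 libraries; points are libraries and short bars group means. PNISR exon 10 lies at 0.478 to 0.656 in the double knockdown and 0.819 to 0.829 in siNT, and SF1 at 0.606 to 0.683 and 0.42 to 0.451.

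Host genes of small nucleolar RNAs, many of whose spliced transcripts are non-coding and subject to NMD, had the largest share of called exon events among the lists: of 100 events in 15 genes, 2 were higher and 25 lower (27.0%). Their median change was -0.68 log2 odds in the double knockdown, -0.50 in siSFSWAP and 0.38 in siNT/siUPF1, beside 0.30, 0.29 and 0.27 over all exons. The 25 lower events came from 5 genes and many share an exon. A 23 nt event of GAS5 went from 0.979, 0.95 and 0.976 to 0.828, 0.848 and 0.885 (-2.39 ± 0.31, SE, adjusted p = 1.8e-11). A 47 nt event of SNHG1 went from 0.843, 0.872 and 0.899 to 0.6, 0.61 and 0.668, and exon 5 of TAF1D, a subunit of the RNA polymerase I factor SL1, from 0.989, 0.992 and 0.979 to 0.835, 0.847 and 0.876. A 112 nt event of SNHG6 went the other way, from 0.77, 0.8 and 0.792 to 0.948, 0.909 and 0.905. Events of 69 and 62 nt in SNHG6 were called lower, from mean levels of 0.939 and 0.884 in siNT to 0.802 and 0.672 in siSFSWAP/siUPF1. Of 19 introns in these host genes, 2 were lower and 0 higher (10.5% called, against 8.16% of all introns).

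Of 90 exon events in genes of NMD and of translation termination, 3 were higher and 5 lower, a share of 8.89% near the 7.93% of all. The median change was 0.11 log2 odds, beside 0.30 over all exons. RBM8A, a core protein of the exon junction complex, had a 75 nt event at exon 3 that went from 0.997, 0.991 and 0.995 to 0.961, 0.92 and 0.978. GSPT1, the release factor eRF3a, skipped its 42 nt exon 3 more (0.996, 1 and 1 against 0.965, 0.935 and 0.983). ETF1, the release factor eRF1, included a 124 nt exon of intron 2 at 0.0104, 0.0102 and 0.0208 in siNT and at 0.0714, 0.0639 and 0.0321 in the double knockdown. Of 12 introns, 1 was lower: intron 61 of SMG1, the kinase of UPF1, at 0.0653, 0.0401 and 0.107 in siNT and 0.00579, 0.0125 and 0.0182 in siSFSWAP/siUPF1. SMG1 has near-identical partial copies in the genome, so reads assigned to it are uncertain.

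In 54 exon events of the O-GlcNAc and hexosamine pathway, 3 were higher and 2 lower, a share of 9.26% near the 7.93% of all. AMDHD2 removes the acetyl group of N-acetylglucosamine 6-phosphate. An event at AMDHD2 exon 5 had levels of 0.446, 0.754 and 0.585 in siNT and 1, 1 and 1 in siSFSWAP/siUPF1. It had 28 to 62 reads a library. Exon 7 of GFPT2, a rate-limiting enzyme of the hexosamine pathway, went from 0.864, 1 and 0.984 to 0.857, 0.722 and 0.738. A 107 nt exon in intron 10 of OGA, listed as MGEA5, went from 0.0669, 0.0385 and 0.0383 to 0.00893, 0.0192 and 0.0021 (adjusted p = 0.034). RENBP exon 7 was also called higher, on 6 to 33 reads a library.

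Against siNT, in which UPF1 was not knocked down, the OGT decoy exon was not called. Its longer form, shown above, had levels of 0.543, 0.755 and 0.715 in siNT and 0.759, 0.505 and 0.659 in siSFSWAP/siUPF1, with 137 to 260 reads a library, and the groups overlapped. Reads inside the decoy count as inclusion, and the retained intron around it also holds it. The level is therefore not the share of spliced transcripts with the decoy, which the study reports as small even with NMD inhibited. The change was -0.36 ± 0.44 log2 odds (SE, adjusted p = 0.69; exact permutation test of the levels, p = 0.8), and it turned to 0.07 without the double knockdown library listed second. siSFSWAP lay at 0.437, 0.649 and 0.592 (-0.82 log2 odds) and siNT/siUPF1 at 0.934, 0.778 and 0.893 (1.53). The deviation from their sum was -1.08 ± 0.71, with a 95% interval from -2.47 to 0.32. The study used a different control, siNT/siUPF1, and reports significantly less decoy usage in the double knockdown against it. It also reports less decoy inclusion there by RT-qPCR and by nanopore sequencing of amplicons. The test against siNT does not repeat that comparison. The other 4 tested OGT exon events were not called either, and the shorter form of the decoy, which shares most of its reads, changed by -0.39.

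Of 352 exon events in cytosolic ribosomal protein genes, 30 were higher and 16 lower (13.1% called, against 7.93% of all), and of 65 introns 3 were higher and 4 lower. The higher exon events came from 8 genes and the lower from 10, and many share an exon. RPLP1 exon 2, in a gene of the ribosomal stalk, went from 0.985, 0.991 and 0.991 to 0.958, 0.957 and 0.974 on 4410 to 6634 reads a library. RPLP2 exon 2, in a gene of the same stalk, went the other way, from 0.963, 0.97 and 0.961 to 0.991, 0.988 and 0.988. RPL10 had a 69 nt event at exon 6 at 0.94, 0.955 and 0.929 in siNT and 0.867, 0.873 and 0.894 in the double knockdown, and RPL30 intron 2 fell by 0.76 log2 odds. Ribosomal protein genes have many processed pseudogenes, so their read assignment is uncertain.

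Annotated outcome of the splice forms was used to look for an NMD pattern. In 1556 exon events whose inclusion form alone is annotated as an NMD target in GENCODE 44, 84 were higher (5.40%, against 5.09% of all) and 17 lower (1.09%, against 2.85% of all). The share called higher was thus near that of all exons. The median change was 0.46 log2 odds in the double knockdown, 0.26 in siSFSWAP and 0.69 in siNT/siUPF1. In 1015 events whose skipping form alone is an annotated target, 45 were higher (4.43%) and 38 lower (3.74%), with medians of 0.12, 0.28 and -0.33. In 5674 events with both forms coding, 304 were higher (5.36%) and 200 lower (3.52%), with medians of 0.15, 0.15 and 0.17. Over all exons the medians were 0.30, 0.29 and 0.27. All of these share the siNT libraries.

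UPF1 knockdown alone raised 273 exon events of 202 genes (1.05% of all) and lowered 131 (0.504%) at an adjusted p of at most 0.05 in the same test. Since these events were chosen in siNT/siUPF1 against siNT, the levels in siSFSWAP and siSFSWAP/siUPF1 are the independent ones. The raised exons had a median level of 0.0662 in siNT, 0.191 in siNT/siUPF1, 0.100 in siSFSWAP and 0.126 in siSFSWAP/siUPF1. The median of siSFSWAP/siUPF1 minus siSFSWAP was 0.37 log2 odds, against 0.02 over all exons, and 1.95 had been the value that chose them in siNT/siUPF1 minus siNT. The lowered exons had medians of 0.925, 0.770, 0.944 and 0.920 in the same order of groups, and a median of siSFSWAP/siUPF1 minus siSFSWAP of -0.43. UPF1 reads were at 40.4% of control in the double and 29.6% in the single knockdown, and the part of that difference in these values was not tested.

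Set against the sum of the single changes, 1 intron and 1 exon event deviated at an adjusted p of at most 0.05 in a Wald test on the moderated spread (0.0334% and 0.00385%). At an unadjusted p under 0.05 there were 137 introns (4.58%) and 852 exon events (3.28%). The median deviation was 0.20 log2 odds for introns and -0.25 for exons. limma on log2 odds and on inclusion levels called 0 introns and 0 exon events, and the count of exon events went to 56 without the siNT/siUPF1 library in place 3.

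The intron was a 1066 nt event inside the annotated exon 1 of CREBZF, a bZIP cofactor (chr11:85662458-85663523, minus strand). It was retained at 0.554, 0.401 and 0.478 in siNT. siSFSWAP lay at 0.207, 0.2 and 0.19, siNT/siUPF1 at 0.236, 0.238 and 0.266, and siSFSWAP/siUPF1 at 0.209, 0.211 and 0.253. Each knockdown thus lowered it to a similar level, by -1.83 log2 odds, -1.41 and -1.59, where the sum of the single changes would be -3.24. The deviation was 1.65 ± 0.20 (SE, 95% interval 1.26 to 2.04, adjusted p = 2.5e-06) on 1005 to 1871 reads a library. It held with each library left out and was not called with the intron's own dispersion or either use of limma.

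The same CREBZF exon holds 2 other called introns, chosen after their values were seen. A 213 nt one went from 0.864, 0.868 and 0.842 to 0.775, 0.732 and 0.759 in the double knockdown, with 0.682, 0.769 and 0.737 in siSFSWAP and 0.7, 0.673 and 0.805 in siNT/siUPF1. Its deviation of 1.34 was not called (adjusted p = 0.28). A 1791 nt one rose from 0.53, 0.522 and 0.625 to 0.795, 0.756 and 0.804, with siSFSWAP at 0.668, 0.781 and 0.758 and siNT/siUPF1 at 0.612, 0.414 and 0.619. Retention therefore went in opposite directions within 1 annotated exon.

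The exon event was a 160 nt exon in intron 2 of RBX1 (chr22:40955287-40955446, plus strand), the RING subunit of cullin ubiquitin ligases. It was included at 0.0483, 0.0321 and 0.0479 in siNT and at 0.166, 0.258 and 0.15 in siNT/siUPF1. siSFSWAP lay at 0.0488, 0.0487 and 0.0394 and siSFSWAP/siUPF1 at 0.0478, 0.0341 and 0.0458. The double knockdown thus overlapped the control (-0.04 ± 0.38 log2 odds, SE) where the sum of the single changes would be 2.52. The deviation was -2.55 ± 0.48 (95% interval -3.49 to -1.62, adjusted p = 0.0083), and it was not called after centring on the median deviation, without the siSFSWAP library in place 1 or the siSFSWAP/siUPF1 library in place 2, with the exon's own dispersion, or with either use of limma.

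Other exons with a response to UPF1 knockdown alone were looked at after their values were seen, and none was called for deviation. A 130 nt exon in intron 3 of SRRM1, an SR-related splicing coactivator, was included at 0.155, 0.236 and 0.133 in siNT/siUPF1 and at 0.0473, 0.0944 and 0.0457 in siSFSWAP/siUPF1, against 0.0351, 0.0712 and 0.0585 in siNT (deviation of -2.51 ± 0.45 log2 odds, SE, adjusted p = 0.061). A 144 nt exon in intron 2 of UQCRH, a subunit of respiratory complex III, lay at 0.0309, 0.0273 and 0.0196 in siNT/siUPF1, 0.0288, 0.0269 and 0.0238 in the double knockdown and 0.00706, 0.00859 and 0.00826 in siNT. UQCRH was thus called higher in the double knockdown (adjusted p = 3.0e-14), with a deviation of -1.04 (adjusted p = 0.061).

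Exon 6 of SNRPA1, a U2 snRNP protein, fell to 0.584, 0.64 and 0.721 in siNT/siUPF1 from 0.918, 0.909 and 0.939 in siNT and lay at 0.851, 0.856 and 0.914 in siSFSWAP/siUPF1. Exon 6 of DKC1, the pseudouridine synthase dyskerin, lay at 0.906, 0.885 and 0.935 in siNT/siUPF1 and at 0.995, 0.963 and 0.975 in siSFSWAP/siUPF1, against 0.982, 0.98 and 0.985 in siNT. A 60 nt exon in intron 5 of U2AF2, the large U2AF subunit, lay at 0.105, 0.131 and 0.0886 in siNT/siUPF1 and at 0.0221, 0.0487 and 0.0242 in siSFSWAP/siUPF1. In these 3 genes the double knockdown was not called against siNT. A 112 nt exon of DDX50, an RNA helicase gene, kept more of its response, at 0.361, 0.441 and 0.281 in siNT/siUPF1 and 0.216, 0.262 and 0.213 in siSFSWAP/siUPF1, and was called against siNT (0.0715, 0.0578 and 0.145; adjusted p = 0.00079). A 95 nt exon in intron 11 of SRRM2 lay between, with 0.138, 0.191 and 0.177 in the double knockdown (adjusted p = 0.095).

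**Figure D5:**
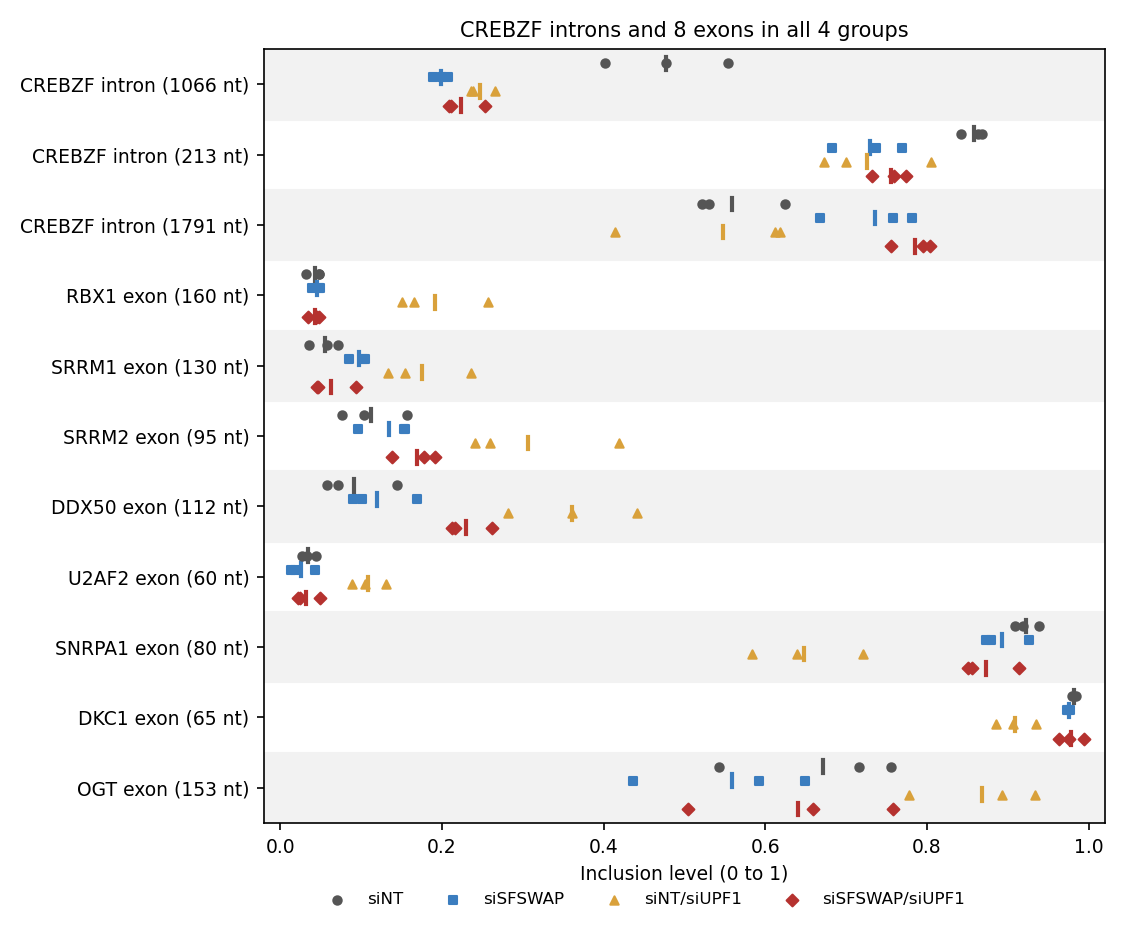
Inclusion level (0 to 1, horizontal axis) of 3 CREBZF introns and 8 exons in each of the 12 libraries; points are libraries and short bars group means. For RBX1 the siNT/siUPF1 libraries lie at 0.15 to 0.258 and those of the other groups at 0.0321 to 0.0488.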

How the data were processed

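PolyA RNA of 4 groups of 3 biological replicates was sequenced as single-end reads. Per the submitters' processing notes and the study's methods, the authors trimmed reads with cutadapt 1.9.1, aligned them with STAR 2.7 to GRCh38.p8 with predicted decoy exons added to the RefSeq annotation, and counted splice events with rMATS in separate runs for the groups without and with UPF1 siRNA. The deposited values used here are raw counts of inclusion and skipping reads per event (junction and exon reads) and the effective length of each form, and each cell joins the 3 libraries of its group and carries no replicate number or batch. A library is named by its place in that cell. The deposited tables also hold the authors' own p-values, adjusted p-values, inclusion levels and inclusion level differences, which were not used.

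Events of the 2 runs were matched on gene symbol, chromosome, strand and all exon coordinates, which matched 5021 retained introns (47.5% and 52.0% of the 2 tables) and 64303 skipped exon events (55.8% and 58.4%). Events were kept where the 6 libraries compared averaged 10 reads or more and together held 10 or more reads of each form. Inclusion levels were computed from the counts and effective lengths. The change was tested with an F test of the deviance of a quasi-binomial model, with the dispersion over all 12 libraries moderated by limma 3.58.1 (R 4.3.3, squeezeVar, robust) and floored at 1, and Benjamini-Hochberg adjustment over all events of a type. The deviation from the sum of the single changes was a Wald test of the interaction in log2 odds from group sums with 0.5 added. The tests were also run on counts simulated from the depths, shares and common spread of these events, a check whose outcome is not given here. p-values are for 3 cultures a group of 1 line, and counts cover reads without molecular identifiers. Leaving out libraries, read filters, other dispersions and limma were tried as alternatives, and centring and the uncentred Wald test joined them only once results had been looked at, as did the comparison of the single knockdowns with each other.

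The members, gene lists and tests were chosen with earlier results of these data known. Genes were named by rule: SFSWAP, UPF1 and OGT, the 8 genes in each direction and event type with the largest called difference where libraries averaged 50 reads or more, the 4 genes of each list with the lowest adjusted p, and those with the largest called deviations. One gene that the rule named is not reported here. Others are said to be chosen after their values were seen. Exon and intron numbers, coding regions and annotated NMD forms are those of GENCODE 44, and sequences were read from GRCh38.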

Additional observations from a re-analysis of the deposited data

Results flagged for a closer look

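The effect of UPF1 knockdown differed with and without SFSWAP knockdown in 2 events by a test of the difference itself, the interaction in the model fitted across all events with limma-moderated spread. For the 1066 nt CREBZF intron the change in siSFSWAP/siUPF1 lay 1.65 ± 0.20 log2 odds (SE) above the sum of the single changes (adjusted p = 2.5e-06). For the 160 nt RBX1 exon it lay at -2.55 ± 0.48 against the sum (adjusted p = 0.0083). With own dispersions or either use of limma neither was called, and the RBX1 deviation was also not called after centring, without the siSFSWAP library in place 1 or without the double knockdown library in place 2.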

How the results depend on the processing

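No paired analysis was possible because the values in a cell carry no replicate number. With 3 libraries a group the exact permutation test cannot pass 0.05, 47.5% to 58.4% of the listed events matched between the separate rMATS runs, and events with few reads give wide intervals. The cause of the changes below was not tested, except that the rule with a difference of at least 0.2 is stricter by construction. Against 244 introns and 2062 exon events called, the count was 5 and 4 with each event's own dispersion. It was 104 and 987 with limma on log2 odds (131 and 1280 with 1 read added) and 86 and 753 with a difference of at least 0.2. Centring gave 127 and 690, and the uncentred Wald test 181 and 755. Leaving out 1 library gave 111 to 322 introns and 1104 to 2343 exon events; the introns moved by over 1.5 times without the siNT library listed first (139) or the siNT library in place 3 (143) or the double knockdown library listed second (155) or the one in place 3 (111), and the exons without the first siNT (1246) or second double knockdown library (1104). Without the second siNT library both counts rose, to 322 and 2343. Deviations, 1 intron and 1 exon event, numbered 4 and 14 with no filter on reads and 0 and 0 with own dispersions or either use of limma. For exon events they numbered 3 with a prior without the robust step, 3 with a trend, and 0 after centring. Leaving out 1 library gave 1 to 3 introns, 3 without the second siNT and 2 without the third siNT/siUPF1 library. For exon events it gave 0 to 56: 56 without the third, 6 without the first and 5 without the second siNT/siUPF1 library, 7 without the second siNT library, 0 without the first and 2 without the second siSFSWAP library, and 3 without the second or the third double knockdown library. The OGT decoy exon ranged from -0.72 to 0.072 log2 odds, and SFSWAP and UPF1 reads in the double knockdown from 0.334 to 0.480 and 0.343 to 0.459 of siNT. Of the events named singly, 1330 double knockdown values kept their direction and side of the threshold, 223 fell below it, 3 rose above it and 12 reversed; for deviations the numbers were 249, 9, 22 and 6. The reversed values were all of uncalled changes: RBX1 with limma (0.010 and 0.018), the SRRM1 change when centred (-0.15) and the MITD1 deviation when centred (-0.15). With 1 library left out, the changes that reversed ranged from -0.23 to 0.15 for RBX1, from -0.53 to 0.20 for U2AF2, from -0.83 to 0.071 for DKC1 and from -0.29 to 0.38 for SRRM1, and the MITD1 deviation from -0.24 to 0.35.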
